A study of Mus musculus with 4 samples.

Results

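The short m6A sites described here are the intervals of at most 100 bases in the site lists of Abro1 knockout (KO) and wild-type (WT) mouse hearts. They were chosen by the length of the interval alone, and they came to 1069 of 10388 KO sites (10.3%, 95% exact binomial interval 9.71 to 10.9) and 1072 of 10814 WT sites (9.91%). Over both lists that was 2141 of 21202 sites, in 1418 distinct intervals. N6-methyladenosine (m6A) was mapped by methylated RNA immunoprecipitation sequencing, in which RNA fragments bound by an antibody against m6A are read alongside an input library that skipped the antibody step. The KO hearts came from ABRO1 knockout mice and the WT hearts from wild-type mice, all on a C57BL/6 background, and the labels give neither the allele, the age nor the number of animals in a library. Each genotype had 1 immunoprecipitate and 1 input library, which were combined into 1 list of sites, so there is no replicate, no spread between animals and no test between the genotypes. Every statement on KO and WT below compares these 2 lists, not the genotypes at large. The lists hold many of the same sites, 723 identical short intervals among them. A trait seen in both lists is therefore not seen in 2 separate sets of sites. The intervals quoted cover counting error only, and sites of 1 gene share their transcript.

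m6A is written on nascent RNA by a methyltransferase complex with METTL3 and METTL14 as its core, removed by FTO and ALKBH5, and read by proteins of the YTH family, which act on splicing, translation and decay. In mammalian mRNA it lies mostly in long internal exons and around stop codons, in the sequence DRACH (A, G or T; then A or G; then AC; then A, C or T). ABRO1, also called ABRAXAS2, is the scaffold of the BRISC deubiquitinase, which cuts lysine-63-linked ubiquitin chains. The labelled tissue was checked only through genes with a site of any length, which reports methylation and not level. Of 10 cardiomyocyte markers 4 had a site in the KO list and 4 in the WT list (Tnnt2, Ttn, Ryr2 and Actn2 over both lists), of 6 fibroblast markers 2 in KO and 4 in WT, of 5 endothelial markers 4 in KO and 3 in WT, and of 4 macrophage markers none in either. These counts do not set cardiomyocytes apart from the other cell types. Abraxas2 itself had no site in either list, so the lists hold no check of the knockout.

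The sequences of 6 short sites are shown because they let the ends of a site be read against the signals that border exons. They come from RefSeq (GRCm38.p6, the assembly of mm10), from windows around gene starts, and run 5′ to 3′ on the strand of the site, with DRACH matches in capitals. Psmc1, at chr12:100110186-100110211 on the plus strand, encodes an ATPase subunit of the 26S proteasome. Eif5b, at chr1:38032277-38032375 on the plus strand, encodes a translation initiation GTPase. Hnrnpd, at chr5:99976534-99976590 on the minus strand, encodes a protein that binds AU-rich RNA. Ehbp1, at chr11:22014855-22014954 on the minus strand, encodes a protein that links endocytosis to actin. Palmd, at chr3:116953057-116953137 on the minus strand, encodes a paralemmin family protein. Gm1078, at chr7:4971124-4971168 on the minus strand, is an older symbol of Sbk3, a predicted kinase gene. The sequences of Psmc1 and Gm1078 are from windows of their own gene, and those of Eif5b, Hnrnpd, Ehbp1 and Palmd are from windows of the predicted genes Gm34448, Gm42127, Gm51938 and Gm32148, in that order, of which all but Gm42127 are on the opposite strand.
Psmc1: gcgatttggaGGACTgaaggaagatg
Eif5b: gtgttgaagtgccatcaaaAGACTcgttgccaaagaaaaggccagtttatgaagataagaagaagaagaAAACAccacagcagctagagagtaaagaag
Hnrnpd: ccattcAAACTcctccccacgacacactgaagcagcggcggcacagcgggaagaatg
Ehbp1: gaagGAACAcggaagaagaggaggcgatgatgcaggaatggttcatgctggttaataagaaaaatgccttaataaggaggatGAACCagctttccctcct
Palmd: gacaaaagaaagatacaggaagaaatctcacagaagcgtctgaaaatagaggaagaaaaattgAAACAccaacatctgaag
Gm1078: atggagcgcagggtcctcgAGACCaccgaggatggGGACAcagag
The Psmc1, Eif5b, Hnrnpd and Ehbp1 sites had the same interval in both lists, whereas those of Palmd and Gm1078 overlapped no site of the KO list. In all 6 the genome continues with GT directly after the 3′ edge, and in all but Psmc1, where TG comes before the 5′ edge, AG stands directly before it. The sites other than Psmc1 were picked to show both dinucleotides, which few short sites had together. Other sites with both, such as that of Nutf2, are not shown. As background, nearly all mammalian introns begin with GT and end with AG.

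The same reading was made for every short site with an edge inside a RefSeq window, which reaches 250 bases before to 50 bases after a gene start. GT followed the 3′ edge of 41 of 43 KO short sites (95.3%, interval 84.2 to 99.4) and 41 of 42 WT short sites (97.6%, 87.4 to 99.9). For longer sites it was 81.7% of 153 in the KO list and 83.0% of 153 in the WT list, against 4.90% of all dinucleotides of the windows. At the 5′ edge, sites that began exactly at a RefSeq start were left out. AG stood before 6 of the 52 other KO short sites (11.5%, interval 4.35 to 23.4) and 7 of the 51 other WT short sites (13.7%, 5.70 to 26.3). Both intervals included the 7.56% of all dinucleotides. For longer sites it was 11.4% of 658 in the KO list and 10.4% of 666 in the WT list, near the short sites. With the same sites left out, AG before and GT after stood together at 4 of 23 KO short sites (17.4%) and 6 of 24 WT short sites (25%) with both edges readable. Longer sites had both at 26.3% of 57 in the KO list and 21.4% of 56 in the WT list. A further 19 KO and 16 WT short sites with both edges readable began at a RefSeq start and are not in these counts. These windows lie at gene starts, where a 5′ edge can be a start of transcription, and 63 KO short sites (5.89%) and 66 WT short sites (6.16%) began exactly at a RefSeq start, against 10.5% and 9.85% of longer sites. In windows, 43 KO and 40 WT short sites lay whole, which is 4.02% and 3.73% of them, so the sequences describe the few sites that lie near some RefSeq gene start. That start can be of another gene, as for 4 of the 6 sites shown.

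DRACH was present on the site's strand in 22 of these 43 KO short sites (51.2%) and 20 of the 40 WT short sites (50%). The same stretch of all 32815 RefSeq windows held it in 58.6% for the KO sites and 58.4% for the WT sites, as a mean over the sites. GGAC was found in 15 of 43 KO short sites (34.9%) and 10 of 40 WT short sites (25%), against 19.9% and 19.3% of windows, and GGACT, which contains it, in 4 and 3, against 5.88% and 5.65%. The interval for DRACH in the KO sites was 35.5 to 66.7%, which included the window value. For GGAC the interval was 21.0 to 50.9% in the KO sites, just above its window value. In the WT sites it was 12.7 to 41.2%, which included the window value. Some GGAC matches were followed by G and so are not DRACH, as in Carhsp1.

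The lengths of the short sites were counted by their remainder on division by 3. A length divisible by 3 was found for 456 KO short sites (42.7%, interval 39.7 to 45.7) and 470 WT short sites (43.8%), beside 37.7% of all KO sites and 38.1% of all WT sites. An even spread over the remainders would give 33.3%. Sites above the limit and up to 150 bases had 43.4% in the KO list and 44.6% in the WT list, so the share did not change at the limit. Sites of up to 50 bases had 36.3% in KO and 33.6% in WT. The commonest short lengths were 96 bases (41 KO and 49 WT sites), 93 bases (38 and 45) and 81 bases (37 and 40), which are all divisible by 3. Without the Trdn sites the share was 41.5% in the KO list and 42.7% in the WT list, and with 1 site per gene 40.5% and 42.8%.

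**Figure D1:**
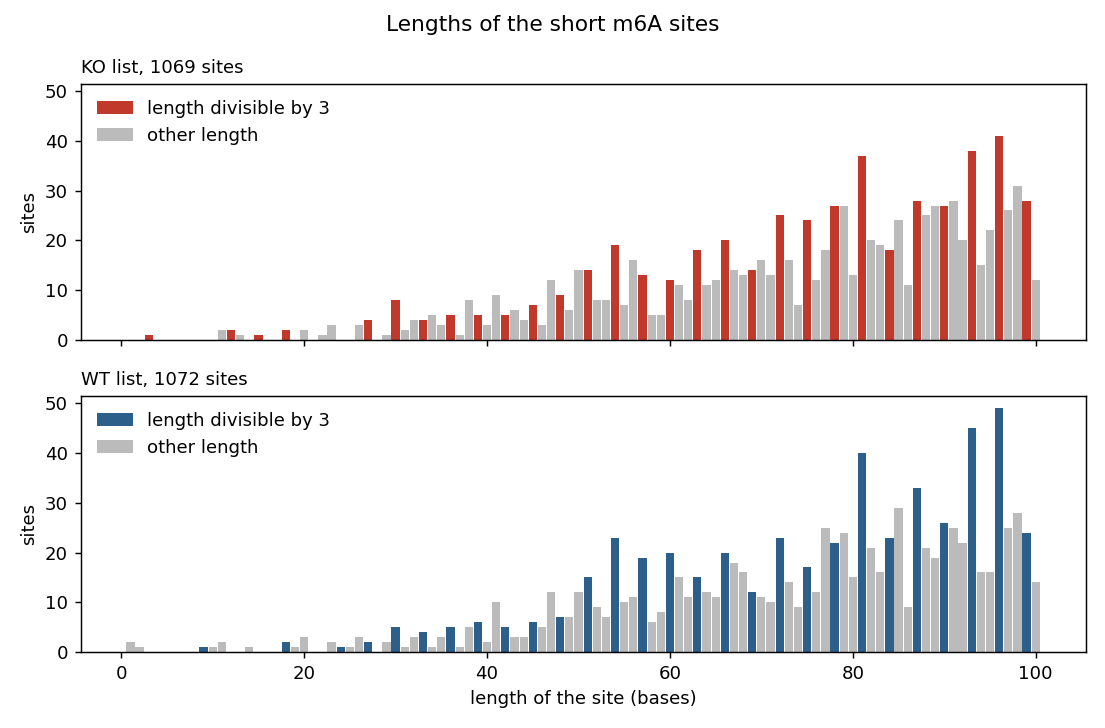
Number of short sites (vertical axis) by length in bases (horizontal axis) in the KO list (1069 sites, upper panel) and the WT list (1072 sites, lower panel), with lengths divisible by 3 in their own colour. Counts rise towards 100 bases and the tallest bars, at 96 and 93 bases, are divisible by 3.

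The limit falls in the middle of a continuous run of lengths. The highest scoring sites just inside it, at 100 bases, included Tnrc6c, an adaptor of the Argonaute silencing complex, with a fold enrichment of immunoprecipitate over input of 47.32 in KO and 53.68 in WT, and Lamc1, a laminin chain, with 7.10 in KO and 8.49 in WT. Just outside it, 1 base longer, Gigyf2, a translational repressor, had a fold of 52.65 in KO and 69.8 in WT, and App, the amyloid precursor, 6.07 in KO and 6.30 in WT. At the other end, the shortest KO site was 3 bases in Syne3, a nesprin of the nuclear envelope, and the WT site there covered 2 bases. Asb18 and Celf3 had WT sites of 1 base.

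The fold and score are the authors' values for the site in its own list. The median fold of short sites was 7.19 in KO (quartiles 5.05 and 10.9) and 8.46 in WT (5.92 and 12.9), against 8.03 in KO and 9.46 in WT for longer sites. The score, which grows as the caller's p falls, had a median of 180 in KO and 176 in WT for short sites, and of 284 in KO and 281 in WT for longer sites. Length, fold and score come from the same peak call, so these differences are a description. The false discovery rate was 100% for every KO short site, and below 100% for 107 of the WT short sites (9.98%), with a minimum of 83.3%. Longer sites also had a first quartile of 100% in each list, with a minimum of 40% in KO and 80.6% in WT. Their share below 100% was not counted, so these values are not a trait of short sites.

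In the gene, short sites were spread more evenly than longer ones as a whole, a trait they shared with the sites next in length. Each matched RefSeq gene span, introns included, was cut into 5 equal parts from 5′ to 3′. In the last part lay 222 of 1058 KO short sites (21.0%, interval 18.6 to 23.6), against 36.4% of longer KO sites (35.4 to 37.4). In the WT list it was 20.1% of 1060 short sites, against 37.4% of longer sites. The first part held 24.9% of KO short sites and 24.3% of WT short sites, close to the 26.3% and 25.6% of longer sites. The 3 parts between them held more of the short sites: the fourth part had 21.6% in KO and 20.9% in WT, against 15.9% and 15.4% for longer sites. Sites above the limit and up to 200 bases had 22.7% in KO and 24.4% in WT in the last part, close to the short sites, and sites over 1000 bases had 57.7% and 58.6%. The lower share at the 3′ end was thus not particular to the short sites. Both lists showed it, but 723 short intervals were the same in both and so had the same place.

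**Figure D2:**
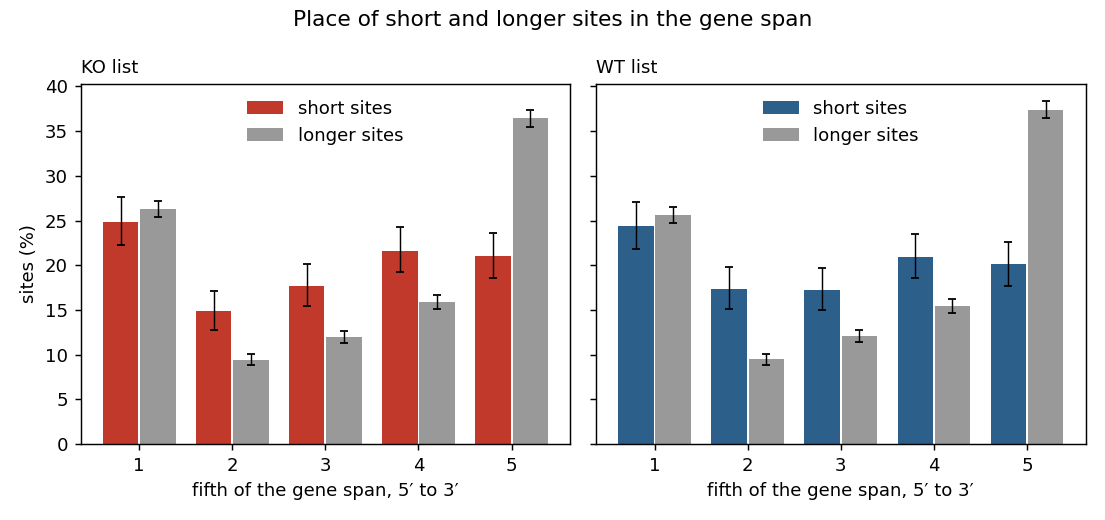
Percent of sites (vertical axis) in each of 5 equal parts of the gene span from 5′ to 3′ (horizontal axis) for short and longer sites, in the KO list (left) and the WT list (right). The last part holds 21.0% of KO and 20.1% of WT short sites but 36.4% and 37.4% of longer sites.

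The exact ends of the span were also counted. No KO short site and 1 WT short site ended exactly at the 3′ end of the gene, where 481 longer KO sites (5.20%) and 516 longer WT sites (5.33%) did. Sites above the limit and up to 150 bases were alike, with 0 of 1330 in KO and 1 of 1333 in WT ending there, and 3.38% and 2.78% starting at the 5′ end. The 0 of 1065 KO sites allows a share of up to 0.346%. At that 5′ end began 35 KO short sites (3.29%) and 32 WT short sites (3.0%), against 7.44% and 6.71% of longer sites. The median span of genes with a short site was 51431 bases in KO and 48724 bases in WT, against 29552 and 29132 bases for genes with longer sites only. Genes with sites just above the limit were not split off. Genes with many sites weigh in this: 12.7% of KO and 14.5% of WT short sites were the only site of their gene, against 35.4% and 33.9% of longer sites.

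Of the KO short sites, 776 (72.6%, interval 69.8 to 75.2) overlapped a WT site on the same strand by at least 1 base, and 777 WT short sites (72.5%, 69.7 to 75.1) overlapped a KO site. Over all lengths 80.4% of KO sites and 77.2% of WT sites did so, so the short sites lay below that background in both lists. Sites above the limit and up to 200 bases had 77.1% in KO and 76.7% in WT. The score went with this share: 32.8% of KO and 32.4% of WT short sites were in the weakest of 4 equal classes of score in their list. With all classes together, 81.3% of longer KO sites and 77.7% of longer WT sites overlapped. Within classes the gap to longer sites was smaller, though only a little in the weakest KO class, and not always in 1 direction. In the weakest class 44.2% of KO short sites overlapped, against 52.0% of longer KO sites, and for WT it was 43.8% against 47.6%. In the next class it was 75.7% against 79.2% in KO and 77.7% against 72.6% in WT. In the strongest class it was 97.8% against 97.8% in KO and 95.1% against 97.1% in WT.

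**Figure D3:**
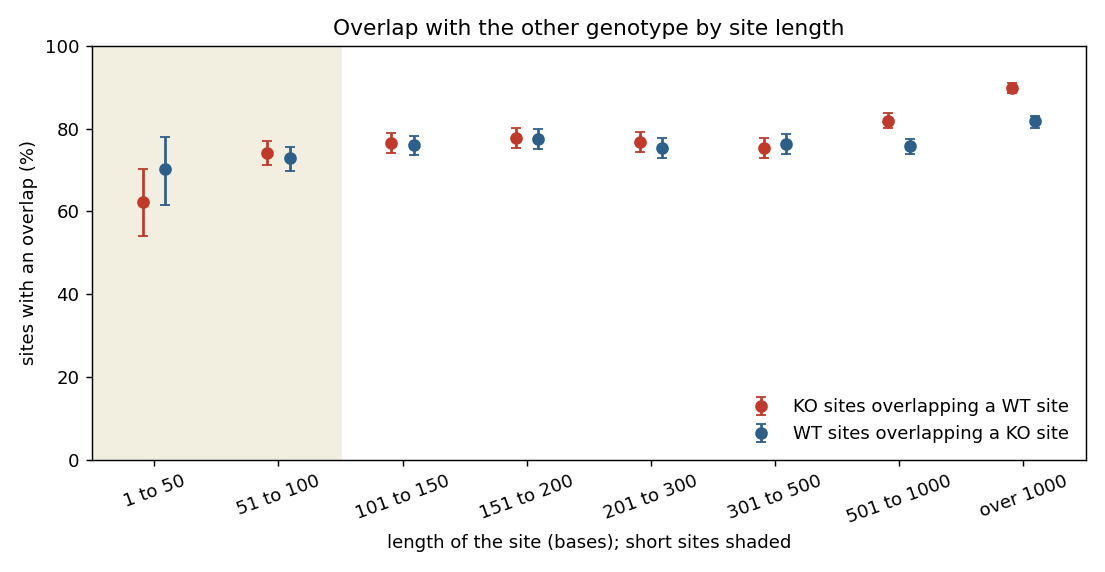
Percent of sites that overlap a site of the other genotype (vertical axis) by length of the site in bases (horizontal axis), for the KO and the WT list, with exact 95% intervals as bars and the short sites shaded. Short sites lie at 72.6% in KO and 72.5% in WT over all, and sites of up to 50 bases at 62.3% in KO and 70.2% in WT.

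Where a short site overlapped, its edges mostly agreed to the base. An identical interval was found for 723 short sites, which is 67.6% of the KO and 67.4% of the WT short sites, beside 56.8% of all KO sites and 54.6% of all WT sites. Of overlapping short sites 93.2% in KO and 93.0% in WT were identical, against 68.4% of overlapping longer sites in each list. The sites above the limit and up to 200 bases had 96.2% in KO and in WT, so near-complete identity was not particular to the short sites. Over all sites of that class, overlapping or not, 74.2% in KO and 73.8% in WT had an identical interval, more than of the short sites. At least 1 edge was shared by all 776 KO and all 777 WT overlapping short sites, against 96.0% of the longer ones in each list. Of the 43 pairs of short sites that were not identical, 20 shared the 5′ edge and 23 the 3′ edge. No overlap joined sites of different gene symbols.

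In 21 cases the short site met a longer one: 10 KO short sites had a longer WT partner, and 11 WT short sites had a longer KO partner. The Nexn site, in a gene for an actin-binding protein of the cardiac Z-disc, measured 99 bases in KO and 104 bases in WT. For Ube2v1, a ubiquitin-conjugating enzyme variant, a KO site of 93 bases with a fold of 7.45 met a WT site of 156 bases with a fold of 36.7. In the other direction, the predicted gene Gm4799 had a KO site of 409 bases with a fold of 271 and a WT site of 76 bases with a fold of 239. These 21 sites enter the short list of 1 genotype only because of the limit, not because the other list had no site.

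The remaining 293 KO and 295 WT short sites overlapped nothing in the other list. Of the 293, 229 lay in a gene with some WT site and 64 in a gene with none, and of the 295 it was 207 and 88. The same split was not made for longer sites. The nearest site of the other list in the same gene was a median of 5748 bases away for KO and 4110 bases for WT, and none lay within 50 bases. Their median fold was 5.25 in KO and 6.37 in WT, against 8.39 and 9.72 for the overlapping short sites.

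The highest scoring KO short sites without overlap were in Atg4a, a protease of autophagy, with 79 bases at chrX:140995563-140995641 and a fold of 30.4, in Lrrc4b, a synaptic adhesion protein, with 47 bases and a fold of 42.5, and in Rp9, with a fold of 31.3. Wdr43, which acts in ribosome assembly, had a fold of 18.8, and Nexn a KO site of 42 bases with a fold of 5.69. Col6a3, a chain of collagen VI, had 12.0, and Ak1, the muscle adenylate kinase, 5.08. All of these stood in the KO list alone at their position.

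Among WT short sites without overlap, Mphosph8, a reader of methylated histone H3, had 94 bases with a fold of 367, the highest of any short site. A second Mphosph8 site, of 97 bases, was shared by the lists and had folds of 8.31 in KO and 6.31 in WT. Rbm20, the cardiac splicing regulator of titin, had WT sites of 87 and 80 bases with folds of 17.65 and 9.87 and no short KO site. Hnrnpk, an RNA-binding protein, had a WT site of 98 bases with a fold of 19.0. Ppara, the nuclear receptor for fatty acids, had one of 85 bases with a fold of 23.8, and the WT site of Gm1078 shown above a fold of 80.9. The lists do not show how far under the caller's threshold a missing site lay.

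Across the 723 identical intervals the KO fold divided by the WT fold had a median of 0.839 (quartiles 0.680 and 1.06), beside 0.831 for the 5181 identical longer sites. The KO fold was the lower one at 504 (69.7%), the higher one at 218 and equal at 1, beside 72.5% lower over all 5904 identical intervals. The score went the other way, being higher in KO at 382, lower at 297 and equal at 44. A score of exactly 3100 was held by 52 KO and 56 WT short sites, so scores can tie there. Fold and score thus gave different directions. In fold the short sites lay close to the background, and the direction of the score was not counted over all identical intervals. The cause of the list-wide offset was not tested.

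**Figure D4:**
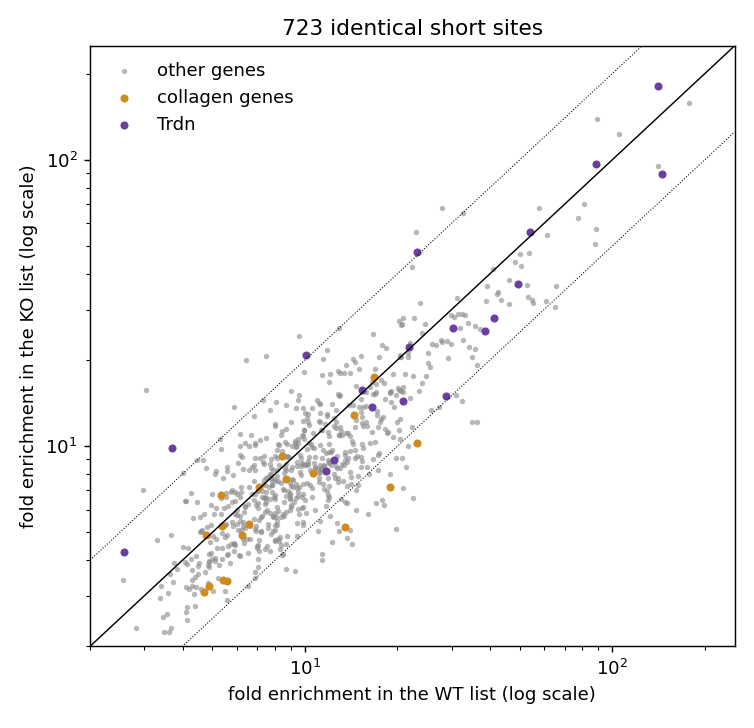
Fold enrichment in the KO list (vertical axis, log scale) against that in the WT list (horizontal axis, log scale) at the 723 short intervals that both lists hold, 1 point per interval. Most points lie under the diagonal, 504 of 723.

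A KO fold at least 2 times the WT fold was found at 14 of the 723 identical short intervals, beside 66 of all 5904 identical intervals (1.12%). A KO fold at most 0.5 times the WT fold was found at 46 of the 723, beside 350 of all 5904 (5.93%). The highest ratio was 5.18, in Ccdc55, a gene for a splicing-related protein, with 15.7 in KO and 3.04 in WT. Ddx10, a helicase of ribosome assembly, had 20.01 in KO and 6.42 in WT. St13, a co-chaperone of HSP70, had 67.9 in KO and 28.0 in WT. The lowest was 0.260, in Kbtbd12, with 5.14 in KO and 19.8 in WT. Irs2, an insulin receptor substrate, had 6.34 in KO and 17.0 in WT at 51 bases, and Smarcad1, a chromatin remodeller, 4.57 in KO and 14.2 in WT. The proteasome site in Psmc1, 26 bases and shown above, had 30.7 in KO and 65.2 in WT.

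Tnrc6b, a partner of Argonaute proteins in microRNA silencing, had 4 identical short sites. Their folds were 65.48, 42.3, 14.5 and 10.59 in KO, against 32.75, 22.37, 7.32 and 5.30 in WT in the same order. All 4 were close to 2 times higher in KO, which is the opposite of the list-wide direction. In Col6a6, a collagen VI chain, the 5 identical sites had folds of 12.85, 10.24, 7.20, 5.34 and 5.22 in KO, against 14.49, 23.08, 18.85, 6.59 and 13.49 in WT, each lower in KO. Sites of 1 gene share its transcript and its input, so these are 2 genes and not 9 observations.

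Among the short sites that overlapped between the lists, Trdn, whose product triadin holds the calcium release unit of the sarcoplasmic reticulum together, had a site of 60 bases with a fold of 182 in KO and 141 in WT. Anp32b, a nuclear histone chaperone, had 70 bases with 158 in KO and 178 in WT. Eif3j1, a translation initiation factor subunit with a near-identical copy, Eif3j2, had 92 bases with 138 in KO and 88.9 in WT. Reads of such copies may be split or shared, so this value is uncertain, as are those of Rsph3a and Rsph3b. Sh3bgr, a gene of heart and skeletal muscle, had 3 short sites, of 72, 93 and 81 bases, with folds of 69.91, 23.47 and 22.69 in KO and 81.1, 32.57 and 26.01 in WT. Upf2, a factor of nonsense-mediated decay, had 50.7 in KO and 88.1 in WT, and Myo6, a myosin, 57.4 in KO and 88.7 in WT.

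The short sites fell in 805 KO genes and 810 WT genes, which is 14.1% of the 5727 genes with a KO site and 13.8% of the 5888 with a WT site. Over either list it was 1031 of 6660 genes (15.5%). Both lists gave a short site to 584 genes, the KO list alone to 221 and the WT list alone to 226. Genes with a site of any length were shared more: 5727 KO and 5888 WT genes made up 6660 over both lists. For short sites, 805 and 810 made up 1031. Of the 221, 157 had some WT site of another length, and of the 226, 141 had some KO site. In 147 KO and 166 WT genes every site was short, while 658 KO and 644 WT genes had a longer site too. Most genes, 660 in KO and 656 in WT, had 1 short site, and 54 KO and 49 WT genes had 3 or more.

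Trdn held the most, 21 of its 22 KO sites and 21 of its 23 WT sites, from 18 to 63 bases long and all divisible by 3. Of these 19 had the same interval in both lists, and their folds ran from 3.03 to 182 in KO and from 2.58 to 146 in WT. Ktn1, kinectin, a receptor for kinesin, had 10 short sites of 20 in KO and 11 of 19 in WT, of which 10 were identical. Dnmt1, the maintenance DNA methyltransferase, had only short sites, 8 in KO and 6 in WT, from 41 to 85 bases. Its 6 identical sites had folds of 5.07 to 12.87 in KO and 6.05 to 17.14 in WT, lower in KO at all but 1. Baz2b, a bromodomain protein, had 6 in each list, all identical, with folds of 5.66 to 68.1 in KO and 4.56 to 57.7 in WT.

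**Figure D5:**
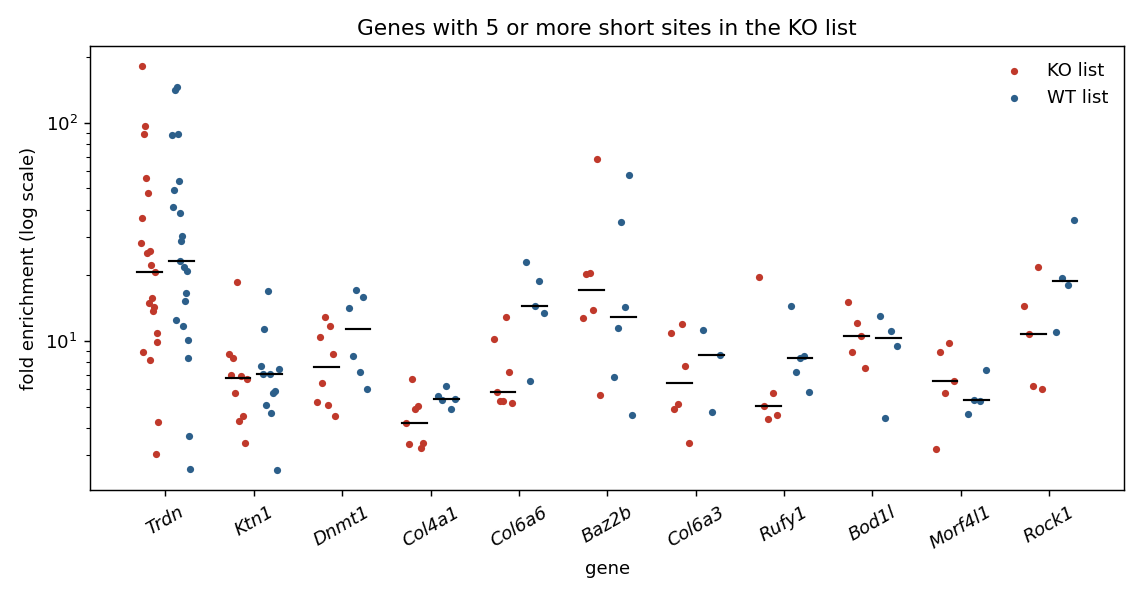
Fold enrichment (vertical axis, log scale) of every short site, 1 point each, in the 11 genes with 5 or more short sites in the KO list (horizontal axis), with KO points left of WT points and a bar at the median. Trdn spans from 3.03 to 182 in KO, and the medians of Col6a6 are 5.87 in KO and 14.5 in WT.

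Sites in collagens, the fibre and basement membrane proteins of the matrix, were often short. Of 62 collagen sites in the KO list 31 were short (50%), and of 55 in the WT list 23 (41.8%), beside 10.3% and 9.91% of all sites. They lay in 9 KO and 8 WT genes, with Col4a1 (7 in KO, 5 in WT), Col6a6 (7 and 5) and Col6a3 (6 and 3) first. Of their lengths 28 of 31 in KO and 21 of 23 in WT were divisible by 3, and 15 and 13 by 9. A length of 54 bases occurred 5 times in each list. As background, the triple helix of a collagen is a repeat of Gly-X-Y, and many of its exons hold whole repeats. Without collagens the share of short sites divisible by 3 was 41.2% in KO and 42.8% in WT. At 63 bases Col6a2 had a fold of 17.5 in KO and 16.7 in WT, and at 54 bases Col4a1 had 4.90 in KO and 6.24 in WT.

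Other families varied. Zinc finger genes of the Zfp group, whose finger arrays are mostly encoded in 1 long exon, had 12 short sites of 250 in KO (4.80%) and 11 of 283 in WT (3.89%). Solute carriers had 3 of 79 in KO and 5 of 92 in WT. Kinesins of the Kif group had 8 of 43 in KO (18.6%) and 8 of 39 in WT (20.5%), and myosins 10 of 50 in KO (20%) and 6 of 47 in WT (12.8%). Ribosomal protein genes had 6 of 54 in KO (11.1%) and 5 of 52 in WT (9.62%), near the 10.3% and 9.91% of all sites. Laminins had 1 of 9 in KO and 1 of 8 in WT. Predicted Gm or Rik genes had 22 of 340 in KO (6.47%) and 28 of 366 in WT (7.65%). These families were picked with the lists in view and are given as counts.

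The shares of list members below are of genes with a site, and over all such genes 14.1% in KO and 13.8% in WT had a short one. The lists hold few such genes, so whether a share differs from these values was not tested. Of 30 sarcomere genes 13 had a site in KO and 13 in WT, and 2 had a short one in each list (15.4%), near the share over all genes: Acta1, skeletal actin, with a fold of 3.92 in KO and 3.74 in WT, and Nebl, nebulette of the Z-disc, with 7.30 in KO and 7.79 in WT. Of 29 calcium-handling genes 4 of the 16 with a KO site and 5 of the 15 with a WT site had a short one. These shares, 25% in KO and 33.3% in WT, were higher but rest on few genes. Asph, the gene of junctin and junctate, had 3.21 in KO and 4.41 in WT at 57 bases, and Calm2, a calmodulin gene, 10.4 in KO and 16.9 in WT at 31 bases. Ryr2, the cardiac ryanodine receptor, had a short site of 43 bases with a fold of 6.01 in KO alone, and Sri, sorcin, one of 59 bases with 6.05 in WT alone. Of 29 cardiac transcription factor genes, 22 with a site in each list, 1 had a short one in KO and 1 in WT. The share of 4.55% in each list was lower but rests on 1 gene: Tbx5 in KO, with 10.3 at 92 bases, and Ppara in WT.

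Short sites were also found in RNA-processing and chromatin genes. Of 56 splicing genes 7 of the 25 with a KO site and 8 of the 27 with a WT site had a short one (28.0% and 29.6%, against 14.1% and 13.8% of all genes with a site), and 5 had it in both lists, among them Hnrnpd, Hnrnpm, Rbm25 and Srsf11. Hnrnpm had folds of 26.99, 4.51 and 3.77 in KO, against 34.0, 7.04 and 4.88 in WT, at sites of 54, 53 and 78 bases. Rbm25 had 15.6 in KO and 20.6 in WT, and Srsf11 12.6 in KO and 15.3 in WT. Among the m6A machinery itself, 2 of the 15 genes with a KO site and 2 of the 17 with a WT site had a short one, Mettl14 and Ythdc1, which is 13.3% and 11.8% and near the share over all genes. Ythdc1, the nuclear m6A reader, had 15.5 in KO at 89 bases and 19.9 in WT at 90 bases. Mettl14 shared 1 site of 89 bases, with 4.41 in KO and 4.15 in WT. It had 2 further KO sites, with 8.67 and 6.40, and another WT site of 81 bases, with 14.3. Of 59 chromatin genes 8 of 46 in KO and 10 of 47 in WT had a short site (17.4% and 21.3%), with Kmt2e at 6.81 in KO and 9.87 in WT.

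Of 15 genes of the BRISC and BRCA1-A complexes and their partners, 2 had a site in KO and 3 in WT, none of them short, which is too few genes to set against the share over all genes. Of 45 ubiquitin genes 7 of the 29 with a KO site and 12 of the 29 with a WT site had a short one (24.1% and 41.4%), against 14.1% and 13.8% of all genes with a site. Trim63, the muscle ubiquitin ligase MuRF1, had 13.9 in KO and 15.8 in WT at 78 bases, and Rnf168, a ligase of the DNA damage response, 18.1 in KO and 13.1 in WT. Fbxw7 had one of 64 bases with a fold of 5.07 in KO alone. Birc6 (fold 5.39), Cyld (7.94), Otud7b (4.64), Rnf111 (4.58) and Usp9x (5.03) were among those with one in WT alone. Cyld, Otud7b and Usp9x encode deubiquitinases. The one-sided sites named here each had a fold under 8.

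The remaining lists are also read against 14.1% in KO and 13.8% in WT. Of 42 matrix genes 7 of 23 in KO and 6 of 23 in WT had a short site (30.4% and 26.1%), mostly collagens. Of 46 kinase and signalling genes 2 of 29 in KO and 2 of 33 in WT had one (6.90% and 6.06%), Irs2 and Map4k4, the second with 7.32 in KO and 10.4 in WT. Of 34 genes of oxidative metabolism 1 of 8 in KO and 1 of 7 in WT had one (12.5% and 14.3%). Of 41 genes of the immediate early list 27 had a site in KO and 28 in WT, and none of these had a short one.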

How the data were processed

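RNA of KO and WT hearts was profiled in 4 libraries, 1 immunoprecipitate and 1 input per genotype, read as paired-end reads of 150 bases per the labels. The labels name a directional NEBNext kit and the design text a KAPA kit, so the kit is uncertain. The submitters' processing notes list mm10, HISAT2 2.0.4 and cutadapt 1.9.3. For the peak caller's settings, nothing is given in the sources used here. The authors deposited 1 list per genotype, made from both libraries. The deposited fold is immunoprecipitate over input as a linear ratio. The deposited score is the negative log10 of the caller's p multiplied by 10, per the file headers. False discovery rates were deposited in percent. The lists hold no counts, so depth is unknown.

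Starts were moved to 1-based positions, since the deposited starts matched gene starts only then. Sites were matched on the same strand with an overlap of at least 1 base in Python 3.11.15 (pandas 2.3.3, numpy 2.4.6), and the overlap step was tested on simulated data. Exact 95% (Clopper-Pearson) intervals came from scipy 1.17.1. RefSeq spans and windows (GRCm38.p6) matched 1065 of 1069 KO and 1068 of 1072 WT short sites. Exons were not used here. Genes and sites named are the top scoring without overlap, the top by fold with overlap, the shortest, those at the limit, the genes with most short sites and up to 4 members of each list by score. The most changed identical sites, Tnrc6b, Baz2b, Rbm20, the unequal pairs, other sites of a named gene, further list members and the sequences shown were chosen after their values were seen. Members and gene lists were chosen with earlier results of these data known. A few members of the lists are not reported here.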

Additional observations from a re-analysis of the deposited data

How the results depend on the processing

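No paired analysis was possible because each genotype had 1 list and no replicate, and no replicate could be left out. Of 80 alternative values, 49 stayed within the interval or 1.5 times of the reported one and 31 moved. With a limit of 80 bases the short share was 5.51% in KO and 5.28% in WT, the KO overlap 69.8%, the identical share 64.0% in KO and 64.1% in WT, the share in the last 20% of the span 18.3% in KO and 17.6% in WT, and the genes 318 in both lists, 146 in KO alone and 145 in WT alone. With 150 bases the share was 23.1% in KO and 22.3% in WT, the identical share 70.6% and 70.5%, the share in the last 20% of the span 22.8% in WT, and the genes 1143 in both, 346 in KO alone and 359 in WT alone. With scores of at least 100 the share was 9.23% in KO and 8.98% in WT, the overlap 76.2% and 75.4%, the identical share 72.5% and 72.1%, the median fold 8.8 and 10.4, the median score 322 and 297, and the genes 134 in KO alone and 139 in WT alone. With the WT list cut to the number of KO sites by score, the WT overlap was 75.6%. An overlap of 50% of the site, reciprocal overlap, either strand, a gap of 50 bases and leaving out Trdn or the collagens moved none of the values they were run on; the alternatives for identical intervals and for lengths divisible by 3 were chosen after seeing the data. Depth is unknown, so an absent site cannot be told apart from one under the caller's threshold.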

Other observations

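The shortest sites had another pattern of lengths. Of the 146 KO sites of up to 50 bases, 65 left a remainder of 2 on division by 3 (44.5%, exact interval 36.3 to 53.0) and 53 were divisible by 3 (36.3%). Of the 131 WT sites of that length, 47.3% left a remainder of 2. The sites of 51 to 100 bases in KO had 43.7% divisible by 3 and 26.3% with a remainder of 2. This was seen after the lengths had been counted and was not tested.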
